A study of Mus musculus with 3 samples.

Results

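To describe how the genes of the desmosome were expressed while mouse skin built its epidermis and hair follicles, 9 of the 19165 genes in the deposited single-cell table were followed. They were taken from a fixed list of desmosome genes and not by a rule on their values: the desmosomal cadherins *Dsg2*, *Dsg3*, *Dsc2* and *Dsc3*, the plaque genes *Jup*, *Pkp1*, *Pkp3* and *Dsp*, and the membrane gene *Perp*. The list was chosen with earlier results of these data known. All 9 were detected, with totals from 334 UMIs (unique molecular identifiers, each standing for 1 captured transcript) for *Dsg3* to 66715 for *Perp*. The cells came from dorsal back skin of male C57BL/6 mice at 3 stages named by embryonic or postnatal day, E13.5 (induction of the hair follicle), E16.5 (organogenesis) and the day of birth (P0, cytodifferentiation), with no treatment or altered gene named at any stage. Skin of several animals was pooled into 1 library per stage. The embryonic skin was digested with trypsin and EDTA and the P0 skin with collagenase IV, so stage and library cannot be told apart at any stage, nor can the enzyme between P0 and the earlier stages. With 1 library per stage there were no replicates and no difference could be tested. Every interval given is a 95% interval for counting error only. Those of levels, shares and ratios are exact, and those of log2 differences are a normal approximation, which is rough at low counts.

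Desmosomes are spot junctions that rivet neighbouring epithelial cells together and anchor their keratin filaments. Desmogleins (Dsg) and desmocollins (Dsc) span the gap between cells as calcium-dependent adhesion proteins. Inside the cell their tails bind plakoglobin (*Jup*) and plakophilins (*Pkp1*, *Pkp3*), and desmoplakin (*Dsp*) ties this plaque to keratin. *Perp* encodes a tetraspan membrane protein needed for stable desmosomes in stratified epithelia and is a target of the epidermal factor p63. In skin, the cadherin isoforms are known to be distributed by layer: *Dsg3* and *Dsc3* mainly in basal layers, *Dsg1* in differentiating layers, *Dsg2* and *Dsc2* more widely in simple epithelia. Adult epidermis and heart muscle both depend on desmosomes, and loss of *Dsp* or *Jup* causes disease of skin and heart.

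The plaque genes that link cadherins to keratin lie apart in the genome (GRCm38): *Jup* at chr11:100368958-100397763 on the minus strand, *Dsp* at chr13:38151294-38198577 on the plus strand, *Pkp1* at chr1:135871395-135919207 on the minus strand and *Pkp3* at chr7:141078218-141090510 on the plus strand. *Perp* lies at chr10:18845020-18857073 on the plus strand. The RefSeq promoter windows of *Jup* and *Dsp* (GRCm38.p6, 250 bases before to 50 after the start of the gene, 5′ to 3′ on the gene's strand) are shown. They were chosen because they were available, and not for the levels of these genes. Capitals mark the GC box GGGCGG on either strand. The *Jup* window is chr11:100397741-100398040 and the *Dsp* window chr13:38151044-38151343.
Jup: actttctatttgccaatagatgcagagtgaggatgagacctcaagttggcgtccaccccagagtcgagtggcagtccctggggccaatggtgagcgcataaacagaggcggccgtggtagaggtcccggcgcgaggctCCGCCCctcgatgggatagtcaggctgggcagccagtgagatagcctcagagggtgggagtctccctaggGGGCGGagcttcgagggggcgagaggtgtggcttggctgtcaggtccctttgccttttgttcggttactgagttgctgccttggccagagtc
Dsp: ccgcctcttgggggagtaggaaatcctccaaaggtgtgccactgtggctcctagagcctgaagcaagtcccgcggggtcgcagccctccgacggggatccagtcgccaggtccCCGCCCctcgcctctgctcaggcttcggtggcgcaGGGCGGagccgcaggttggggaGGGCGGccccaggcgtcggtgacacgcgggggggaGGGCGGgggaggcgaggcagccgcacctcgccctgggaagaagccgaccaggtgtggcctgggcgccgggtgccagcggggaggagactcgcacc

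The *Dsp* window held 4 GC boxes and the *Jup* window 2, while 35.7% of the 32851 promoter windows of the same length held at least 1. The share of G and C was 73.0% for *Dsp* and 60.7% for *Jup*, against a median of 52.7% over all windows. Neither window held the AP-1 letters TGANTCA, the Grhl letters AACNGGTT or the TATA box letters TATAAA, which 7.81%, 2.09% and 13.6% of all windows held. These matches describe letters on either strand and do not show that a factor binds.

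Epithelial-like cells were identified in each library from *Krt5*, *Krt14*, *Krt15*, *Krt17*, *Trp63*, *Epcam*, *Sfn* and *Fermt1*, a list that holds none of the 9 genes. There were 206 such cells at E13.5 (3.46% of 5962), 896 at E16.5 (17.2% of 5208) and 1475 at P0 (29.1% of 5065), with median UMIs per cell of 9819.5, 13234.5 and 9212. The 8 epithelial markers together reached 5304, 12124 and 14971 CPM (UMIs of a gene per 1000000 UMIs of the cells) in these cells and 50.3, 388 and 495 CPM in dermal-like cells. Cells left out of the epithelial-like class and of the other cells numbered 321, 60 and 292. They came from clusters that carried markers of a second class, or from epithelial sub-clusters with at least 20% of the dermal-like marker level. At E13.5 such sub-clusters held 104, 82, 49, 46 and 17 cells, and the cluster with markers of a second class held 23. Between libraries, 115 cell barcodes recurred in 231 cells, and leaving these out changed no member's call. Scrublet marked 0, 84 (1.61%) and 106 (2.09%) cells as doublets at the 3 stages. These were kept, and the caller did not work at E13.5.

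All 9 desmosome genes were higher in epithelial-like cells than in all other cells at all 3 stages. Summed over the members, the level was 2395, 2127 and 2925 CPM in epithelial-like cells at E13.5, E16.5 and P0, against 53.3, 106 and 201 CPM in the other cells. Differences are given as log2 of the ratio of CPM after 10 was added to each, which understates the change of low genes, and a gene was called where this reached 2-fold and both groups together held at least 50 UMIs. By this rule 9 of 9, 7 of 9 and 7 of 9 members were higher in epithelial-like cells, where 4.0%, 3.63% and 4.18% of all genes with enough UMIs were. The median log2 difference of the members was 2.76, 2.98 and 2.87, and that of all genes −0.05, −0.08 and 0.0. The members not called at E16.5 and P0 were *Dsc2* (0.74 and 0.39) and *Dsg3* (0.77 and 0.53), whose epithelial-like levels were below 10 CPM there.

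Among the desmogleins, *Dsg2*, the isoform of simple epithelia, had 61.4 CPM (interval 51.7 to 72.5) in epithelial-like cells at E13.5, 26.6 (23.9 to 29.4) at E16.5 and 15.8 (14.1 to 17.7) at P0. In all other cells it stayed at 0.513, 0.863 and 0.937 CPM. *Dsg3*, the basal isoform of stratified epithelia, was lower than *Dsg2* at each stage, with 17.1 CPM (12.2 to 23.4), 7.95 (6.54 to 9.58) and 4.83 (3.89 to 5.92). In the class as a whole, both desmogleins were thus lower at each later stage, with intervals that did not overlap between any pair of stages. *Dsg2* took 78.2%, 77.0% and 76.6% of the UMIs of the pair. Within groups described below, the picture from E16.5 to P0 was less uniform. *Dsg2* had 27.0 and 23.7 CPM in basal-like cells, with overlapping intervals, and 26.6 and 15.4 CPM in placode or follicle-like cells. *Dsg3* had 8.74 and 4.92 CPM in basal-like cells but 1.82 and 4.41 CPM in placode or follicle-like cells.

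In epithelial-like cells as a class, the desmocollins exchanged places between E13.5 and E16.5. *Dsc2* had 65.0 CPM (54.9 to 76.3) in epithelial-like cells at E13.5, 7.16 (5.83 to 8.71) at E16.5 and 3.36 (2.59 to 4.29) at P0. *Dsc3* had 21.5 (15.9 to 28.4), 93.7 (88.7 to 98.9) and 120 (115 to 125). In the other cells *Dsc2* had 1.11, 0.275 and 0.204 CPM and *Dsc3* 1.89, 3.14 and 7.66 CPM. *Dsc2* therefore made up 75.1% (68.5 to 81.0) of the desmocollin UMIs counted here at E13.5, 148 of 197, but 7.10% (5.82 to 8.57) at E16.5 and 2.73% (2.11 to 3.47) at P0. Of the 148 *Dsc2* UMIs at E13.5, 131 were in periderm-like cells, a group described below. In the E13.5 group led by *Krtdap*, *Dsc3* was already higher, with 69.6 CPM against 25.3 CPM of *Dsc2*. The 4 cadherin genes lie on 1 chromosome, chromosome 18, unlike the plaque genes.

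Of the plaque genes, *Jup* had 236 CPM (216 to 256), 183 (176 to 191) and 256 (249 to 264) in epithelial-like cells. Its level outside them, 19.8, 29.5 and 36.2 CPM, was second to *Perp* among the members at each stage. *Pkp1* had 57.9 CPM (48.5 to 68.7), 129 (124 to 136) and 121 (116 to 126), and *Pkp3* 127 (113 to 142), 149 (143 to 156) and 191 (185 to 198). *Pkp1* made up 31.4%, 46.5% and 38.7% of the UMIs of the 2 plakophilins. Outside epithelial-like cells *Pkp1* reached 1.17, 7.0 and 7.70 CPM and *Pkp3* 2.63, 6.69 and 12.7 CPM.

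*Dsp*, the link to keratin, had 321 CPM (298 to 345), 403 (393 to 414) and 258 (250 to 265) in epithelial-like cells, highest at E16.5. In other cells it had 5.6, 17.1 and 18 CPM. *Perp* exceeded every other member, with 1489 CPM (1439 to 1540), 1127 (1109 to 1145) and 1955 (1936 to 1975), and made up 62.2%, 53.0% and 66.8% of all member UMIs. In the other cells it had 20.3, 41.0 and 118 CPM. Since a UMI counts a transcript once whatever its length, these levels compare transcripts between genes without a length correction. At E13.5 the order was *Perp*, *Dsp*, *Jup*, *Pkp3*, then *Dsc2*, *Dsg2* and *Pkp1*, whose intervals overlapped, then *Dsc3* and *Dsg3*, whose intervals also overlapped. At P0 *Jup* and *Dsp*, with 256 and 258 CPM, had overlapping intervals, as had *Dsc3* and *Pkp1* with 120 and 121 CPM.

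**Figure D1:**
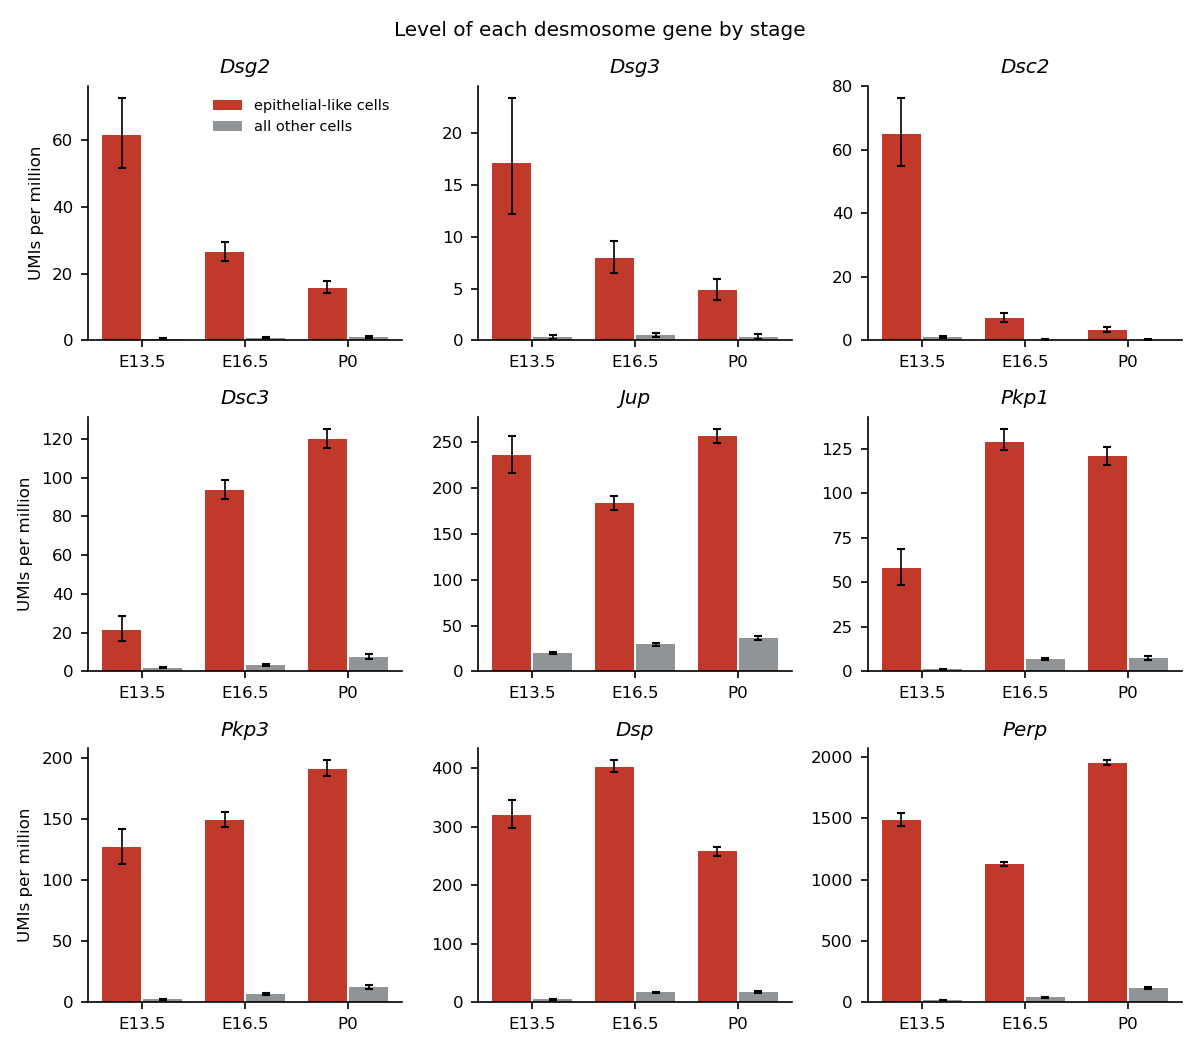
Level of each of the 9 genes in CPM (vertical axis, from 0, scaled per gene) in epithelial-like cells (red) and all other cells (grey) at E13.5, E16.5 and P0. Bars are 1 library each and error bars exact 95% counting intervals. In epithelial-like cells as a class, *Dsc2* goes from 65.0 to 3.36 CPM while *Dsc3* goes from 21.5 to 120 CPM. Of the 148 *Dsc2* UMIs at E13.5, 131 were in periderm-like cells.

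In shares of cells with at least 1 UMI, *Perp* was found in 96.1%, 99.1% and 99.9% of epithelial-like cells and *Dsp* in 74.3%, 94.9% and 76.4%. *Dsg3* was found in 15%, 11.2% and 5.36% of them. In dermal-like cells, which should lack desmosomes, *Perp* was found in 8.23%, 27.0% and 27.8% and *Dsp* in 3.56%, 13.7% and 5.57% (median UMIs per cell 8506, 10400 and 6066). After each cell was thinned to 3500 UMIs, *Perp* was found in 91.7%, 93.4% and 98.0% of epithelial-like and 3.86%, 10.4% and 16.2% of dermal-like cells, and *Dsc3* in 3.40%, 23.8% and 31.4% of epithelial-like cells. *Dsc2* was found in 18.4%, 1.12% and 1.69% after thinning. A median of 5 of the 9 genes was found per epithelial-like cell at each stage, or 3 after thinning, against 0, 1 and 0 per dermal-like cell. Only 1 cell lay under the thinning depth.

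To read the low levels in other classes, each member was expressed as a percentage of its epithelial-like level and set beside the epidermal keratins *Krt14* and *Krt5*, treated in the same way. In dermal-like cells *Krt14* stood at 1.2%, 3.18% and 3.59% and *Krt5* at 1.06%, 3.5% and 3.04% of their epithelial-like levels. *Dsp* (1.23%, 3.52% and 3.69%), *Perp* (0.707%, 2.94% and 2.98%), *Pkp1* (1.19%, 4.21% and 3.25%) and *Pkp3* (1.05%, 3.26% and 3.46%) lay close to these keratins at each stage. *Jup* lay above these keratins, at 6.84%, 10.1% and 7.81%, as did *Dsc3* at E13.5 with 11.1%. *Krt14* and *Krt5* are among the markers that set the epithelial-like class, so their percentages depend partly on how the classes were made. The source of the dermal-like values was not tested. The low cadherins *Dsc2* (1.69%, 2.64% and 5.24%), *Dsg2* (0.522%, 2.13% and 2.59%) and *Dsg3* (0.802%, 6.45% and 2.43%) rested on 2 to 24 UMIs in dermal-like cells, with *Dsg3* at E16.5 (19 UMIs) and *Dsc2* at P0 (3 UMIs) above the keratins.

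*Jup* was the one member with a clear level in endothelial-like cells. They held 57.5 CPM (50.5 to 65.2) of *Jup* at E13.5, 86.3 (79.4 to 93.6) at E16.5 and 77.6 (67.9 to 88.2) at P0, from 245, 575 and 230 UMIs. This was 24.4%, 47.0% and 30.3% of the epithelial-like level, where *Krt14* stood at 3.89%, 3.46% and 4.67%. Plakoglobin also binds classical cadherins, among them VE-cadherin of blood vessels. The other members in endothelial-like cells did not stand apart from the keratins in the same way, as the plot of relative levels shows, although *Dsg2*, *Dsg3* and *Dsc2* rested on few UMIs.

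**Figure D2:**
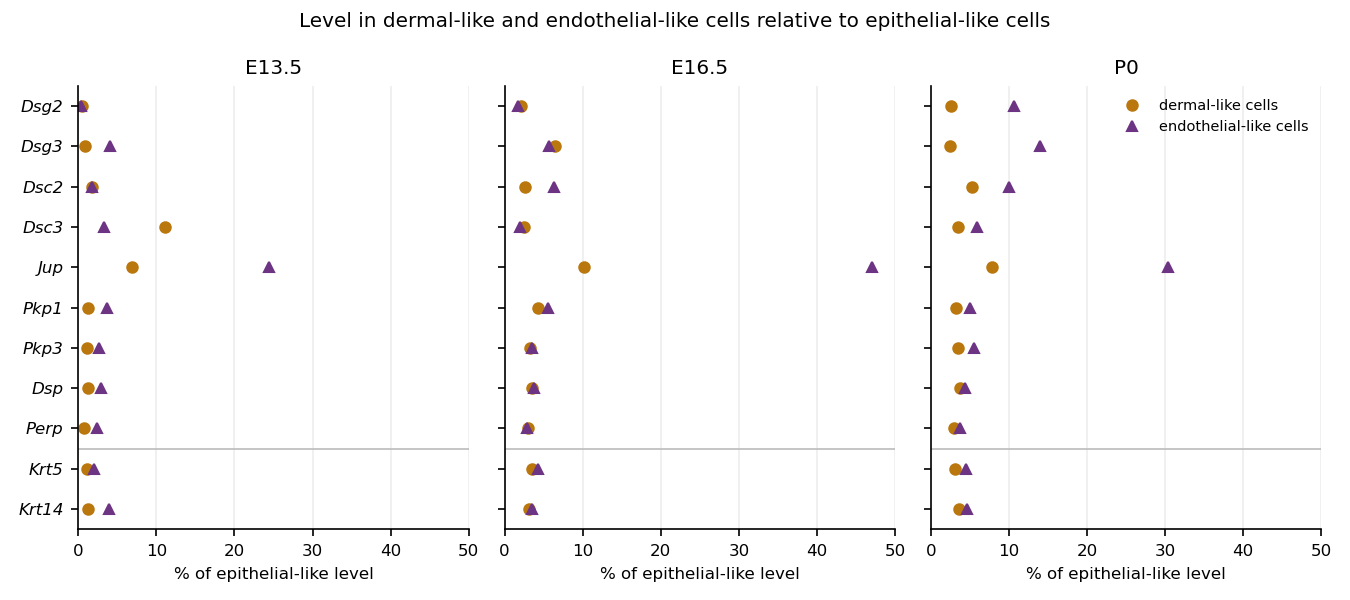
Level of each of the 9 genes and of *Krt5* and *Krt14* (rows) in dermal-like cells (circles) and endothelial-like cells (triangles) as a percentage of the level in epithelial-like cells of the same library (horizontal axis), at E13.5, E16.5 and P0. *Jup* in endothelial-like cells reaches 24.4%, 47.0% and 30.3%, while *Krt14* there stays between 3.46% and 4.67%.

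Epithelial-like cells ranked first among the 10, 8 and 7 classes with at least 30 cells for all 27 pairs of member and stage, and in 24 of them their interval lay above that of the next class. The exceptions were *Dsc3* at E13.5 and *Dsc2* at P0, next to melanocyte-like cells, and *Dsg3* at P0, next to immune-like cells. In 3 small classes the members and the epithelial markers were high together. At P0 melanocyte-like cells (105 cells) held 1118 CPM of the members and 4871 CPM of the 8 epithelial markers, and immune-like cells (66 cells) 690 and 2338 CPM. At E16.5 Schwann-like cells (109 cells) held 439 and 2019 CPM. In the P0 melanocyte-like cells the members stood at 19.1% to 45.7% of their epithelial-like levels, where *Krt14* stood at 28.6% and *Krt5* at 32.3%. The part of epithelial RNA in these values was not tested.

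Between stages, the members as a group did not move one way. From E13.5 to E16.5, *Dsc3* (log2 difference 1.72, interval 1.43 to 2.00) and *Pkp1* (1.04, 0.82 to 1.26) were at least 2-fold higher and *Dsc2* (−2.13, −2.36 to −1.89) at least 2-fold lower, so that 2 of 9 members were called higher and 1 lower, where 2.92% and 3.69% of all genes were. *Dsg2* lay just under the fold with −0.97 (−1.20 to −0.73). The others were smaller, from −0.59 for *Dsg3* to 0.32 for *Dsp*, and the median of the members was −0.35 beside −0.15 over all genes. The call for *Pkp1* did not hold when only cells with 2500 or more genes were kept (0.90) or with finer clusters (0.97). The E13.5 class was small and depended on which clusters were kept. With the mixed clusters included it held 504 cells and 1786 CPM of the members in all, in place of 2395 CPM. *Dsc3*, *Pkp1* and *Dsc2* then differed by 1.92, 1.49 and −1.9. The other members then stood at 0.72 for *Dsp*, 0.54 for *Pkp3*, −0.03 for *Jup*, −0.06 for *Perp*, −0.5 for *Dsg2* and −0.52 for *Dsg3*, with a median over the members of −0.03. The smaller differences therefore depended on this choice. The mixture of cells also differed, in groups described below. No E13.5 group was named basal-like: 84 of the 206 cells were periderm-like, 66 were in a group led by *Dkk4* and 56 in one led by *Krtdap*. At E16.5, 589 of 896 cells were basal-like. The part of this mixture in the stage differences was not tested.

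From E16.5 to P0, 0 of 9 members were called higher and 0 lower in epithelial-like cells as a whole, where 1.84% and 2.05% of all genes were. *Perp* (0.79), *Jup* (0.46), *Pkp3* (0.34) and *Dsc3* (0.32) lay above 0 and *Dsp* (−0.63) and *Dsg2* (−0.50) below. The mixture of cells differed between these libraries: basal-like cells were 589 of 896 epithelial-like cells at E16.5 and 261 of 1475 at P0, and placode or follicle-like cells 166 and 789. Within basal-like cells *Perp* (1.13) and *Pkp3* (1.02) were at least 2-fold higher at P0, which is 2 of the 8 members with at least 50 UMIs, where 2.97% of all genes were. *Jup* (0.98), *Dsc3* (0.97) and *Pkp1* (0.76) lay close behind and *Dsp* at −0.04. Within placode or follicle-like cells *Perp* (1.11) and *Dsc3* (1.01) were called, again 2 of 8, where 1.89% of all genes were, and *Dsp* stood at −0.42. *Perp* was thus the one member called higher at P0 in both groups, and *Jup* (0.49), *Pkp1* (0.27) and *Pkp3* (0.19) were also above 0 in placode or follicle-like cells. The placode or follicle-like label covered different clusters, led by *Dkk4* and by *Lhx2* at E16.5. At P0 it covered clusters led by *Prss35*, *Krt79* and *Shh*, among others. The comparison in this group was therefore not between like cells only.

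The epithelial-like cells of each library were grouped again without desmosome or other junction genes, and the summed level of the members ranged more widely over these groups than over the stages. At E13.5 the group led by *Dkk4*, *Lef1* and *Irx4*, genes known from the placode of the hair follicle, held 755 CPM of the members, the group led by the differentiation genes *Krtdap*, *Dmkn* and *Lgals7* 3062 CPM and periderm-like cells 2927 CPM (66, 56 and 84 cells). At E16.5 placode or follicle-like cells held 1198 CPM, basal-like cells 1856, a group led by *Ccer2*, *Pou4f3* and *Krt8* 2305 (53 cells) and a group led by *Cnfn*, *Psca* and *Krt6a* 5495 (88 cells). This last group carried both suprabasal and periderm markers and was given no name. At P0 placode or follicle-like cells held 1985 CPM, inner root sheath-like cells 2310 (114 cells), basal-like cells 3509, a group led by *Spink5*, *Pvrl3* and *Hspa2* 4702 (81 cells) and suprabasal-like cells 7309 (134 cells). Of the P0 basal-like cells, 195 formed a cluster in which *Ccer2*, the haemoglobin genes *Hbb-bt* and *Hba-a2* and the stress gene *Atf3* led by fold, beside 6 basal markers. A P0 group led by the muscle genes *Acta1*, *Myl1* and *Mylpf* held 2627 CPM (96 cells). The lowest total was in the *Dkk4*-led group at E13.5 and in placode or follicle-like cells at E16.5 and P0. The highest was in groups with differentiation markers at E16.5 and P0. At E13.5 the group led by *Krtdap* (3062 CPM) and periderm-like cells (2927 CPM) lay close together at the top.

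*Dsp* ranged among these groups in E16.5 skin from 227 CPM in placode or follicle-like and 348 in basal-like cells to 1058 in the group led by *Cnfn*. *Jup* there went from 125 and 139 CPM to 551, and *Pkp1* from 52.9 and 121 to 333. At P0, suprabasal-like cells held 707 CPM of *Dsp*, 689 of *Jup*, 344 of *Pkp1* and 4894 of *Perp*, against 340, 284, 211 and 2201 in basal-like and 167, 179, 65.8 and 1324 in placode or follicle-like cells. Inner root sheath-like cells had the lowest *Dsp* at P0 (132 CPM) and the lowest *Pkp1* (42.5 CPM). *Dsg2* ran the other way at P0, with 23.7 CPM in basal-like and 4.45 in suprabasal-like cells.

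**Figure D3:**
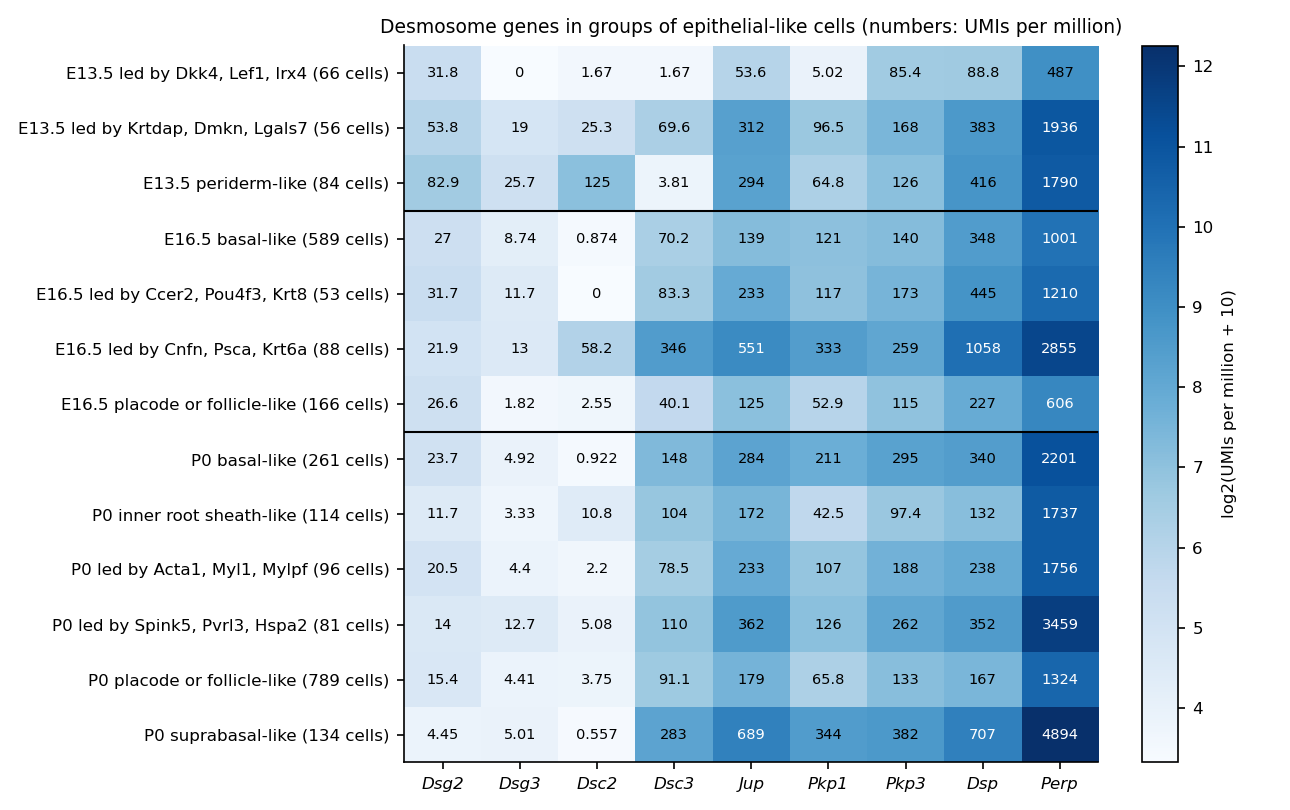
Heat map of the 9 genes across the 13 groups of epithelial-like cells, with 1 library per stage. Colour is log2 of CPM plus 10 and the numbers printed are CPM. *Dsp* reaches 1058 CPM in the E16.5 group led by *Cnfn* and 707 CPM in P0 suprabasal-like cells, and *Dsc2* is highest, at 125 CPM, in E13.5 periderm-like cells.

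The cadherin isoforms divided by group. Periderm-like cells, the flat outermost layer of embryonic skin, held 125 CPM of *Dsc2* and 3.81 CPM of *Dsc3* at E13.5, so that *Dsc2* took 97.0% (92.6 to 99.2) of their desmocollin UMIs, 131 of 135. The share was 26.7% (16.1 to 39.7) in the neighbouring group led by *Krtdap*. At E16.5 the group led by *Cnfn* held 58.2 CPM of *Dsc2* and 346 CPM of *Dsc3*, a share of 14.4% (11.7 to 17.5), and basal-like cells a share of 1.23%. In P0 suprabasal-like cells the share was 0.196%. *Dsc3*, although known mainly from basal layers, did not have its highest transcript level in basal-like cells here. Protein was not measured in these libraries. At E16.5 it had 70.2 CPM in basal-like cells, below the group led by *Cnfn*. At P0 it had 148 CPM in basal-like and 283 CPM in suprabasal-like cells. Of the 148 *Dsc2* UMIs of E13.5 epithelial-like cells, 131 were in periderm-like cells, which were 84 of the 206 cells. Of the 100 at E16.5, 85 were in the group led by *Cnfn*, 88 of 896 cells, whose periderm score (4.29) was next to its suprabasal score (4.63) and which the naming rule left unnamed. The part of such cells in the stage difference of *Dsc2* was not tested.

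To place *Dsg2* and *Dsg3* beside the desmogleins of differentiated layers, the UMIs of *Dsg1a* and *Dsg1b* were added. These are near-identical copies, so reads may have been split or lost between them. Together they made up 1.65% of desmoglein UMIs in epithelial-like cells at E13.5 (3 of 182), 50% at E16.5 (482 of 964) and 69.4% at P0 (894 of 1288). Within E16.5 they made up 29.5% in basal-like cells and 86.3% (82.3 to 89.6) in the group led by *Cnfn*. At P0 they made up 65.2% in basal-like and 96.3% (94.2 to 97.8) in suprabasal-like cells. Their share was thus higher at P0 than at E16.5 in basal-like cells, and higher in differentiated than in basal-like cells at both stages.

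**Figure D4:**
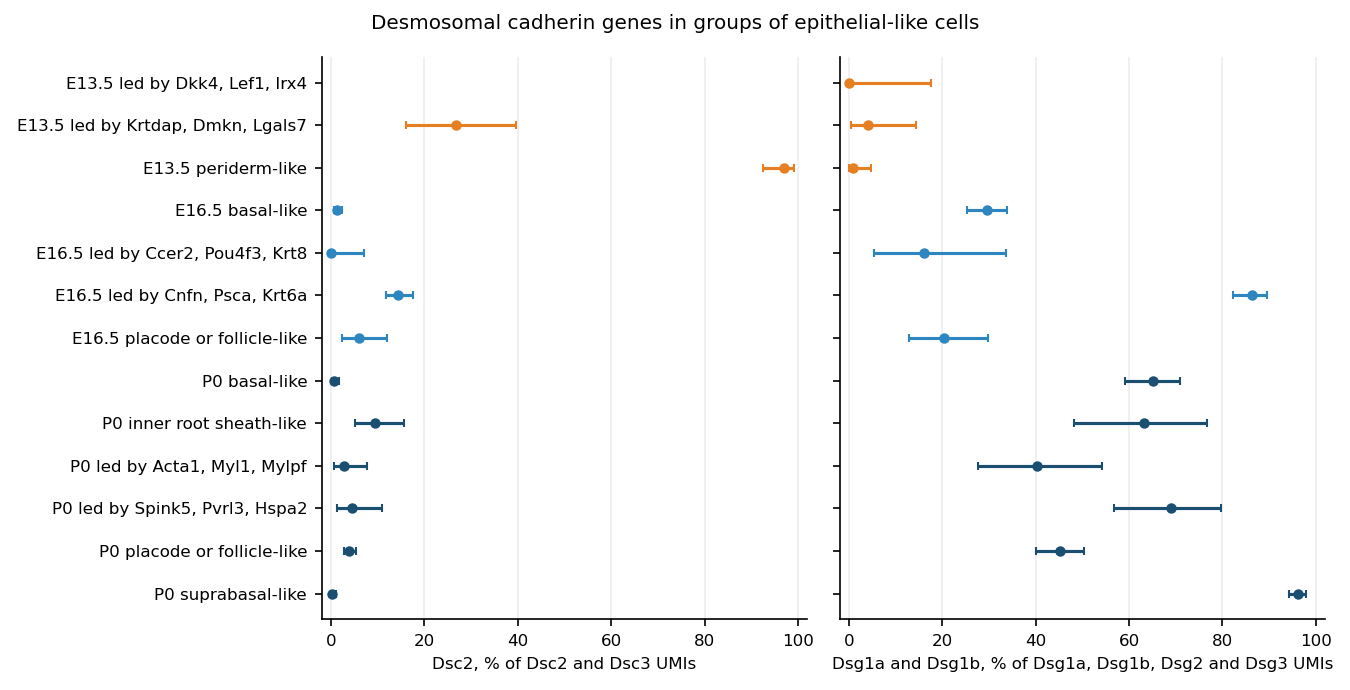
Share of *Dsc2* in the UMIs of *Dsc2* and *Dsc3* (left) and of *Dsg1a* and *Dsg1b* in the UMIs of *Dsg1a*, *Dsg1b*, *Dsg2* and *Dsg3* (right), in percent, for each group of epithelial-like cells. Points are 1 library and bars exact 95% binomial intervals. A group with no desmocollin share drawn had too few UMIs, E13.5 periderm-like cells reach 97.0% *Dsc2*, and P0 suprabasal-like cells reach 96.3% *Dsg1a* and *Dsg1b*.

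To follow the members through differentiation without cluster names, epithelial-like cells with a *Trp63* or *Krt5* value above 0 were binned by the deposited value of *Krt10*, the keratin of the suprabasal layers. This value is the natural log of 1 plus UMIs scaled to 10000 per cell. The bins 0, above 0 to under 2, 2 to under 4, and 4 or more held 229, 590, 34 and 38 cells at E16.5 and 561, 768, 53 and 74 at P0. At E13.5 there were 95 cells at 0, 97 above 0 to under 2, and 1 cell above that. *Krt10* UMIs were also found in 61.1% of dermal-like cells at E16.5 and 37.6% at P0, against 74.2% and 61.2% of epithelial-like cells, whereas 0.182% and 0.474% of dermal-like cells had a value of 2 or more. A low *Krt10* value was therefore also common in dermal-like cells, and the comparison was made between 4 or more and 0.

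*Dsp*, *Jup*, *Pkp1*, *Perp* and *Dsc3* were more than 3-fold higher at the top of the *Krt10* scale at both stages, and *Pkp3* was not. At E16.5 *Dsp* went from 326 CPM at *Krt10* 0 through 342 and 801 to 1416 CPM at 4 or more (log2 difference 2.09), and *Dsc3* from 55.3 through 69.3 and 247 to 542 CPM (3.08). *Jup* went from 133 to 588 CPM (2.06), *Pkp1* from 101 to 369 (1.77) and *Perp* from 981 to 3293 (1.74). *Pkp3* differed by 0.65, from 147 to 235 CPM. This made 5 of the 7 members with at least 50 UMIs higher and 0 lower, where 5.46% and 6.28% of all genes were, and the median of all 9 members was 1.74 beside −0.06 over all genes.

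At P0 *Dsp* went from 174 through 224 and 534 to 788 CPM (2.12), *Jup* from 158 to 742 (2.16), *Pkp1* from 73 to 365 (2.17), *Perp* from 1547 to 5204 (1.74), *Dsc3* from 90.5 to 316 (1.70) and *Pkp3* from 171 to 362 (1.04). *Dsg2* went the other way, from 17.9 CPM (90 UMIs) to 1.84 CPM (2 UMIs), a ratio of 0.103 with an interval of 0.0123 to 0.383. So 6 of 7 members were higher and 1 lower, where 4.63% and 10.9% of all genes were, with a median over all 9 members of 1.70 beside −0.23 over all genes. The lower call of *Dsg2* was lost (−0.66) when the gate was applied to cells of all classes. *Dsc2* and *Dsg3* had too few UMIs to be counted at either stage. The *Pkp1* share of plakophilin UMIs went from 40.7% at *Krt10* 0 to 61.1% at 4 or more at E16.5, and from 29.9% to 50.2% at P0.

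The bins also differed in the cells they held and in depth. At E16.5, 37 of the 38 cells at 4 or more belonged to the group led by *Cnfn*, and at P0 all 74 were suprabasal-like, while the 561 cells at 0 at P0 included 331 placode or follicle-like, 99 basal-like and 57 inner root sheath-like cells. Median UMIs per cell were 12028 at 0 and 11679 at 4 or more at E16.5, and 7584 and 12018 at P0. Without placode or follicle-like and inner root sheath-like cells the P0 differences were smaller, 1.41 for *Dsp*, 1.63 for *Jup*, 1.29 for *Pkp1*, 1.22 for *Perp* and 1.5 for *Dsc3*, and *Pkp3* was no longer called (0.29). *Dsg2* was then at −1.54 but had too few UMIs to be counted. Averaging over cells in place of summing UMIs also left *Pkp3* below 2-fold (0.93).

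**Figure D5:**
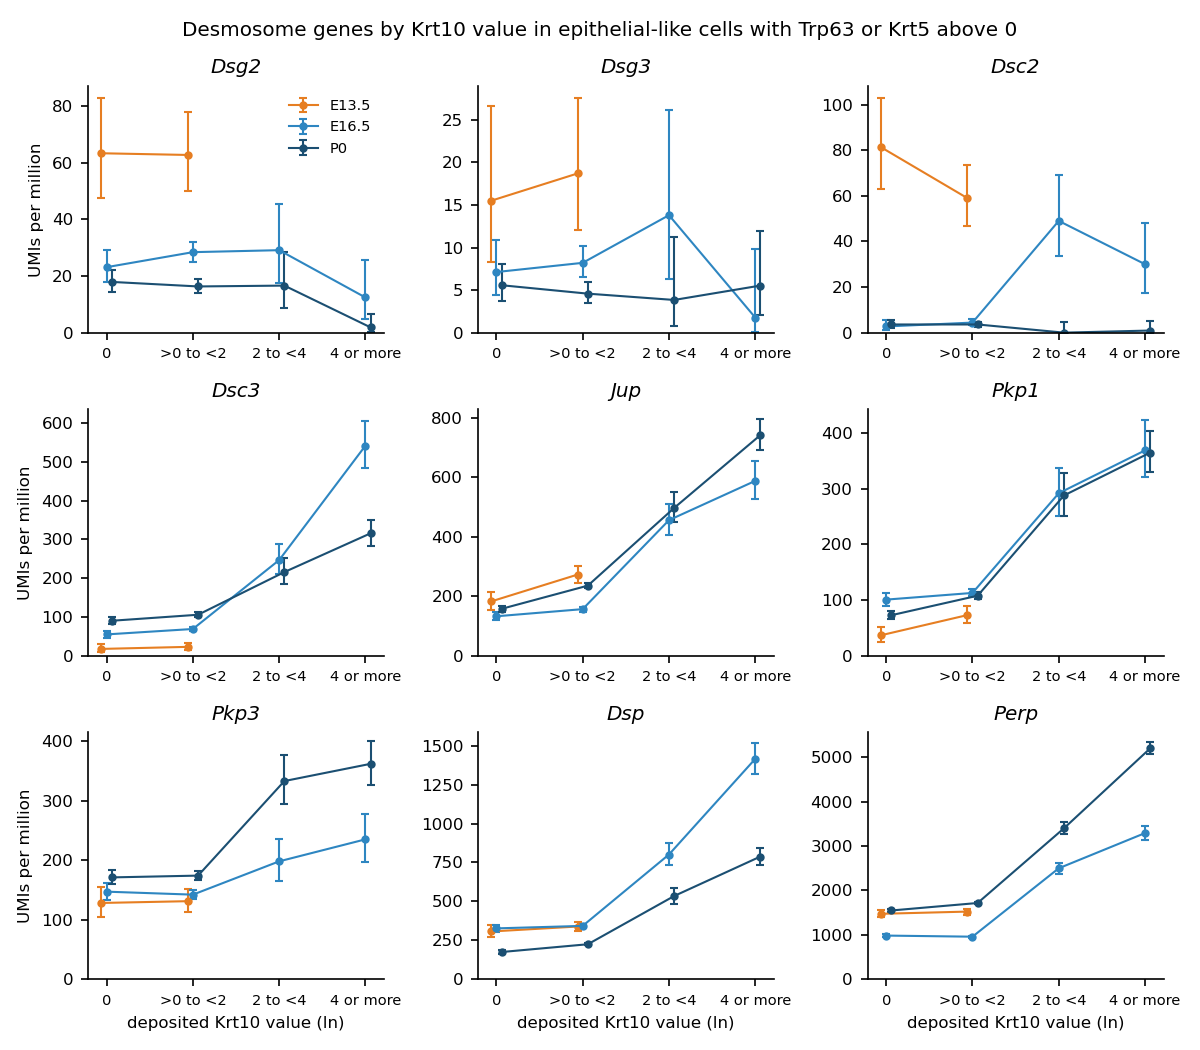
Level of each of the 9 genes in CPM (vertical axis, from 0, scaled per gene) across bins of the deposited *Krt10* value (horizontal axis, natural log scale) in epithelial-like cells with *Trp63* or *Krt5* above 0, at E13.5, E16.5 and P0. Points are 1 library and bars exact 95% counting intervals. *Dsp*, *Jup*, *Pkp1*, *Perp* and *Dsc3* are higher in the 2 upper bins at both later stages, and *Dsg2* is at 1.84 CPM in the top bin at P0.

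Other junction genes were read from lists given beside the members. For the counts that follow, 4.0%, 3.63% and 4.18% of all genes were called higher in epithelial-like cells at the 3 stages. At high *Krt10*, 5.46% and 4.63% of all genes were called higher and 6.28% and 10.9% lower at E16.5 and P0. Of 4 further desmosome and cornified junction genes with enough UMIs, 3, 4 and 3 were at least 2-fold higher in epithelial-like cells at E13.5, E16.5 and P0 (*Pkp2* took the place of *Dsg1a* at E13.5, where *Dsg1a* had 3 UMIs in epithelial-like and 2 in other cells), among them the plakins *Ppl* (3.84, 3.08 and 2.12) and *Evpl* (1.91, 2.02 and 1.43). *Dsg1a* (4.13 and 3.77), *Evpl* (2.44 and 2.18) and *Ppl* (1.60 and 1.62) were also higher at high *Krt10* at E16.5 and P0, 3 of 4 at both stages, as most plaque members were. The remaining gene, the plakophilin *Pkp4*, went the other way between *Krt10* 0 and 4 or more. It fell from 78.0 to 45.9 CPM at E16.5 and from 28.9 to 10.1 CPM at P0, and was not called lower at either stage. Of 6 adherens junction genes, 2, 4 and 2 were higher in epithelial-like cells, E-cadherin *Cdh1* at all 3 stages (3.39, 2.60 and 2.27). At high *Krt10*, 3 of the 6 were higher and 1 lower at E16.5, and 1 higher and 2 lower at P0. *Cdh1* (1.90 and 0.88), the nectin gene *Pvrl1* (1.66 and 1.58) and the p120 catenin gene *Ctnnd1* (1.27 and 0.53) lay above 0 at both stages, as the plaque members did. P-cadherin *Cdh3* was lower at high *Krt10* (−1.0 and −1.83), as was *Ctnnb1*, the plakoglobin relative β-catenin, at P0 (−1.12; −0.88 at E16.5).

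Of 4 tight junction genes, 3, 2 and 1 were higher in epithelial-like cells. *Cldn4* was lower at E16.5 than at E13.5 (−2.62), as *Dsc2* was. Of 6 epidermal transcription factors, 5, 5 and 4 were higher in epithelial-like cells. One of these, *Trp63*, which encodes p63, is itself a marker that set the epithelial-like class and part of the gate for the *Krt10* bins, so its values (2.91, 3.84 and 3.22 in epithelial-like cells, −0.57 and −0.86 at high *Krt10*) are no result. The differentiation factors *Zfp750* (3.15 and 3.45), *Grhl1* (2.87 and 1.66) and *Grhl3* (1.48 and 1.95) were higher at high *Krt10* at both stages, together with *Dsp*, *Jup* and *Pkp1*.

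Across 25 groups of at least 30 cells (stage by class), the genes outside all lists whose log2 level correlated most with the mean of the 9 members were *Map7*, *Lad1*, *Il17re*, *Sytl1* and *Trim29*, with Pearson correlations of 0.982, 0.979, 0.978, 0.975 and 0.973. These are descriptions, since the groups share libraries and the epithelial-like groups set most of the range. *Lad1* encodes ladinin, an anchoring filament protein of the basement membrane. *Trim29* had 183, 177 and 339 CPM in epithelial-like and 2.4, 6.94 and 21.9 CPM in other cells. With rank correlation 2 of the 5 remained. Of the members, which are part of the mean, *Dsp* followed it most closely (0.99) and *Dsc2* least (0.62).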

How the data were processed

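Single-cell RNA-seq (10x 3′ v2) was measured in 3 libraries. The authors aligned reads with Cell Ranger 2.2.0 to mm10, dropped genes seen in under 3 cells and any cell in which under 1750 genes were found, and deposited the natural log of 1 plus UMIs scaled to 10000 per cell. UMIs were recovered from these values: of 48197283 values above 0, 0 lay more than 0.001 from a whole number. Of 16235 cells in the table, which is more than the study states, libraries held 5962, 5208 and 5065 (53334740, 66239195 and 46599806 UMIs). Depth limits *Dsc2* and *Dsg3* most. Each library was clustered alone (scanpy 1.11.5, leidenalg 0.10.2, 2000 variable genes, 30 components, 15 neighbours, resolution 1), and classes were set by marker lists without members or other junction genes. The rules for mixed and unnamed clusters were chosen after clusters were seen. UMIs were summed per class. With 1 library per stage no test was made. Intervals are at 95% (scipy 1.17.1): exact Poisson or binomial for levels, shares and ratios, and a normal approximation for log2 differences. Named genes were all members, all measured genes of the 4 other lists (*Nectin1* under its older symbol *Pvrl1*) and the 5 genes most correlated with the members. The members and lists were chosen with earlier results of these data known. Gene positions are from GENCODE (GRCm38). Contrasts were checked on simulated counts.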

Additional observations from a re-analysis of the deposited data

Results flagged for a closer look

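For 2 members the difference had opposite signs in 2 groups under the same comparison. The difference between the groups was not tested in either case. Between *Krt10* 4 or more and 0, *Dsc2* differed by 1.65 (log2, interval 1.10 to 2.21) at E16.5, from 2.71 CPM (8 UMIs) to 30.0 CPM (17 UMIs). At P0 the same difference was −0.31 (−0.61 to −0.02, by approximation), from 3.58 CPM (18 UMIs) to 0.921 CPM (1 UMI). The ratio was 0.257 with an exact interval of 0.00617 to 1.63, which includes 1. From E16.5 to P0, *Dsg3* differed by −0.33 (−0.60 to −0.05) in basal-like cells, from 8.74 CPM (80 UMIs) to 4.92 CPM (16 UMIs). In placode or follicle-like cells it differed by 0.29 (0.05 to 0.52), from 1.82 CPM (5 UMIs) to 4.41 CPM (47 UMIs). All 4 differences rest on at least 1 group with under 20 UMIs.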

How the results depend on the processing

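Of 145 counts recomputed under alternatives, 133 stayed within 1.5 times the reported count. Member differences of at least 2-fold in the main setting were also recomputed, each counted once per alternative and without the rule of 50 UMIs. Of the 387 values this gave, 387 kept their direction and 382 were still at least 2-fold. The sizes were less stable. Of all 630 values counted in this way, 2-fold or not, 167 moved by more than their counting interval allows. Of 24 summed levels of the members, 11 moved outside their interval. All 27 shares of cells with a UMI moved outside their interval on thinning. From E13.5 to E16.5, members called higher numbered 1 at resolution 1.5 and 1 with at least 2500 genes per cell, and members called lower 2 with at least 2500 genes and 3 with 1 added to each CPM. From E16.5 to P0, 2 were higher within basal-like and 2 within placode or follicle-like cells, in place of 0. At P0, members lower at high *Krt10* numbered 0 when all cells passing the *Trp63* or *Krt5* gate were used (*Dsg2* −0.66) and 0 without follicle-like and inner root sheath-like cells, where *Dsg2* was at −1.54 but, with under 50 UMIs, was not counted. Thinning took the median number of members per epithelial-like cell to 3, 3 and 3, and rank correlation kept 2 of the 5 most similar genes. The cell groups left out or kept were partly chosen after seeing the data. No paired analysis was possible because each stage has 1 library. Depth limits *Dsc2*, *Dsg3* and *Dsg2* in small groups.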

Other observations

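The E16.5 group led by *Ccer2*, *Pou4f3* and *Krt8* (53 cells), which also carried *Atoh1* and *Sox2*, transcription factors known from mechanosensory Merkel cells, held 445 CPM of *Dsp*, 233 of *Jup*, 173 of *Pkp3* and 1210 of *Perp*, against 348, 139, 140 and 1001 CPM in basal-like cells of the same library. *Dsc2* had 0 UMIs there and *Dsc3* 83.3 CPM. None of the 4 genes compared reached 2-fold, and the intervals of *Pkp3* overlapped.

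In the E13.5 group led by *Dkk4*, *Lef1* and *Irx4* (66 cells), *Dsg3* had 0 UMIs and *Pkp1* 5.02 CPM, while *Pkp3* had 85.4 CPM and *Dsg2* 31.8 CPM. In the group led by *Krtdap* these were 19 CPM of *Dsg3*, 96.5 of *Pkp1*, 168 of *Pkp3* and 53.8 of *Dsg2*. At least 5 of the 9 genes were found, after thinning to 3500 UMIs, in 65.7% of P0 suprabasal-like cells and 56.8% of the E16.5 group led by *Cnfn*, against 26.4% and 10.0% of basal-like cells of those libraries.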
